A study of Homo sapiens with 3 samples.

Results

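The enzymes that carry carbon from glucose to pyruvate and lactate, into the tricarboxylic acid (TCA) cycle, and round the pentose phosphate pathway were followed in ribosome profiling of HEK293T cells. The set was chosen by gene name, as 33 enzymes, and 29 of them were listed in all 3 libraries among 8812 transcripts. The counts were 13 of 16 for glycolysis, 4 of 4 for the pyruvate dehydrogenase complex, 9 of 10 for the TCA cycle and 3 of 3 for the pentose phosphate pathway. HK2, PFKM, ALDOA and FH were not analysed here. ALDOC, the aldolase best known from brain, had 64 to 113 coding sequence (CDS) reads per library, too few for the study's read minimum, so 28 enzymes entered the comparisons beside 5684 transcripts in all.

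HEK293T cells derive from human embryonic kidney and express SV40 large T antigen. The comparison set 2 libraries from cells without drug, called Untreated A and Untreated B, beside 1 library (G418 A) from cells given 500 µg/mL G418 for 24 hours. This aminoglycoside acts on the decoding centre of the ribosome and makes it accept wrong tRNAs, and the study asked how often it lets ribosomes pass a stop codon. The study describes biological replicates of its treatments, and the labels of these libraries give only the letters A and B. A p-value here rests on the spread between the untreated libraries alone. The fits shared that spread across transcripts, so a standard error or p-value does not measure how close 1 enzyme's own untreated values were. A single G418 library carries no error of its own, and 2 libraries against 1 cannot give a permutation p below 0.333.

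The libraries held 5857230 (Untreated A), 9477972 (Untreated B) and 7216039 (G418 A) reads assigned to transcripts. Of 6 markers fixed for HEK293T cells, 5 were listed in each of Untreated A and G418 A and all 6 in Untreated B. VIM, an intermediate filament protein, had between 1710 and 2163 RPKM. PAX2, a kidney transcription factor, was listed only in Untreated B, at 1.28 RPKM. Of 4 markers of other cell types, the fibroblast collagen gene COL1A1 alone was listed, at 7.98 to 10.7 RPKM, and PTPRC, ALB and HBG1 were listed in no library.

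Glycolysis splits glucose in the cytosol and yields pyruvate, which lactate dehydrogenase can reduce to lactate. The pyruvate dehydrogenase complex turns pyruvate into acetyl-CoA inside mitochondria, and the TCA cycle oxidises it. The pentose phosphate pathway branches from glycolysis and supplies NADPH and ribose. Dividing lines such as HEK293T are known for high glycolytic flux even with oxygen present.

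Translation normally ends when release factors recognise UAA, UAG or UGA in the ribosomal A site. When a tRNA decodes the normal termination codon (NTC) instead, the ribosome goes on in frame to the next stop codon, the 3′ termination codon (3′TC). The ribosome readthrough score (RRTS) divides the density of ribosome-protected fragments (RPFs) in the stretch from NTC to 3′TC by the CDS density, and is given here in percent. The stop codon and the nucleotide after it are the best known determinants of readthrough, with UGA the leakiest stop and UAA the tightest. A readthrough region here starts after the NTC and includes the 3′TC, and its first 6 nt are left out of the count.

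The sequences around the NTC are shown for the enzymes whose readthrough is described in full below. Each window holds 15 nt of coding sequence, then the stop codon and the next nucleotide in capitals, then 11 nt of 3′UTR. They were read from the GENCODE 44 sequence of the transcript with the same Ensembl identifier, and its annotation gave the hg38 positions. For all 29 enzymes the stop codon, the next nucleotide, the CDS length and the distance to the next in-frame stop matched the deposited tables. The first set holds glycolytic enzymes, from the one with the highest readthrough score in G418 (PFKP) to the one with none detected (PGK1).

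PFKP: cagccctggagtgtcTGACccagtcccgcc
TPI1: atcaatgccaaacaaTGAGccccatccatc
PKM: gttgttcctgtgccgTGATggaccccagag
ENO1: aaccccttggccaagTAAGctgtgggcagg
GAPDH: atggcctccaaggagTAAGacccctggacc
PGK1: gctctcagcaatattTAGTactttcctgcc

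The second set holds mitochondrial enzymes, with high scores in G418 A (SUCLA2, SUCLG1, DLD) before the lowest of the pyruvate dehydrogenase complex (DLAT) and of the TCA cycle (IDH3B).

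SUCLA2: tttcagttgccaataTGATctgaaaaccca
SUCLG1: aagaggaagatgctaTGAAagaaaaaaaaa
DLD: aaatcaatcaactttTGAAttagaagatta
DLAT: atcactatgttgttgTAACtaactcaagaa
IDH3B: gccttgccccacccaTAGGccctgtccata

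The third set is the pentose phosphate pathway, in which TALDO1 and TKT share UAG but not the nucleotide after it.

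PGD: tcgtcatacaatgccTGATcatgctgctcc
TALDO1: gcagagaatggaaagTAGCgcatccctgag
TKT: ctcatcaccaaggccTAGGgcggccagtgc

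The stop codons lie at chr10:3136577-3136579 for PFKP, chr12:6870381-6870383 for TPI1, chr12:6538168-6538170 for GAPDH and chrX:78125828-78125830 for PGK1, all on the plus strand. Those of PKM (chr15:72199650-72199652) and ENO1 (chr1:8861360-8861362) are on the minus strand. Among the mitochondrial enzymes, DLD (chr7:107919257-107919259) and DLAT (chr11:112062533-112062535) are on the plus strand. SUCLA2 (chr13:47943371-47943373), SUCLG1 (chr2:84423746-84423748) and IDH3B (chr20:2658442-2658444) are on the minus strand. PGD (chr1:10419747-10419749) and TALDO1 (chr11:764843-764845) are on the plus strand, and TKT (chr3:53225756-53225758) on the minus strand. Each of these stop codons is in the last exon of its transcript except that of TKT, which is in exon 14 of 15 with an intron 5 nt after the stop.

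In untreated cells the density of ribosomes on these enzymes, in RPKM over the CDS, was highest on glycolytic enzymes. ENO1, the enolase that makes phosphoenolpyruvate, had the highest density at 2763 in Untreated A and 2661 in Untreated B, a mean of 2712 ± 71.8 (SD, n = 2), and it ranked 13 among all transcripts. GAPDH, the only oxidative step of glycolysis, had 1646 and 1867 (mean 1756 ± 156, SD, n = 2) and ranked 41. PKM, which makes pyruvate and ATP, had 1019 and 1163. These 3 enzymes together held 49.3%, 48.9% and 46.2% of the CDS reads of the set in Untreated A, Untreated B and G418 A.

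Other steps after the split into trioses came next, with the isomerase GPI beside them. LDHA, which makes lactate, had 999.8 and 986 RPKM, and TPI1, which interconverts the triose phosphates, 793 and 858. GPI, which acts just after hexokinase, and PGK1, the first ATP-making step, had overlapping values of 568 and 639 against 513 and 608. The kinases that commit glucose to the pathway were far lower, with HK1 at 44.3 and 57.5 RPKM, PFKL at 48.3 and 65.2 and PFKP at 109 and 106.

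MDH2, the malate dehydrogenase that closes the TCA cycle, led the mitochondrial enzymes at 407 and 439 RPKM. CS, which joins acetyl-CoA to oxaloacetate, followed at 241 and 249. The E1 subunits of pyruvate dehydrogenase, PDHA1 and PDHB, had means of 213 and 143 RPKM, above the E2 subunit DLAT at 56.1. The 3 subunits of the NAD-dependent isocitrate dehydrogenase were unequal, with IDH3A at 167 and IDH3B at 157 but IDH3G at 44.7. OGDH, the E1 of 2-oxoglutarate dehydrogenase, had 24.2 and IDH2, the NADP-dependent enzyme, 17.2. TALDO1, PGD and TKT of the pentose phosphate pathway were close to each other at 290, 214 and 205. Over the 29 enzymes in order of density, 12 of 28 neighbouring pairs had overlapping untreated values. Several of these genes, among them GAPDH, PGAM1, LDHA, ENO1, TPI1 and PGK1, have near-identical processed copies in the genome, and a read matching several places was credited to 1 of them, so their levels are uncertain.

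**Figure D1:**
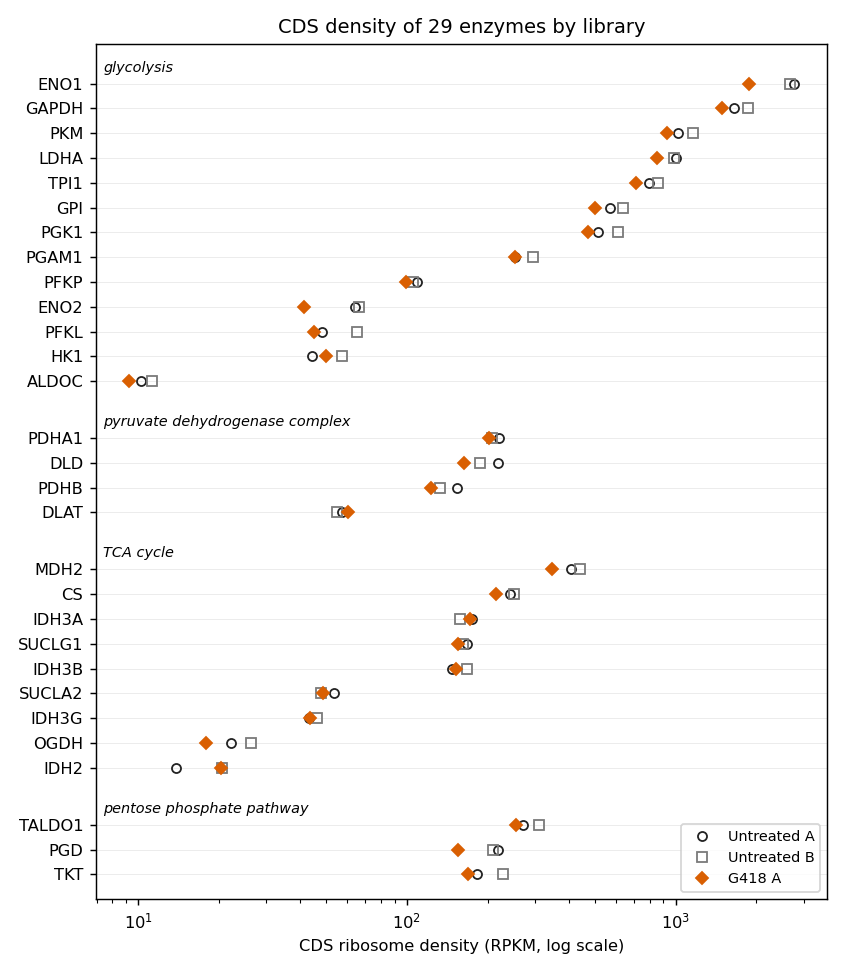
CDS ribosome density (RPKM, log scale) of the 29 listed enzymes, ordered within each pathway by untreated mean, with 1 point per library (circle Untreated A, square Untreated B, filled diamond G418 A). Glycolytic enzymes spanned from 10.8 (ALDOC) to 2712 RPKM (ENO1), and for most enzymes the G418 diamond lies left of both open symbols.

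With G418 the ribosome density of most of these enzymes was lower, and 1 of them, ENO1, passed the test. ENO1 had 2763, 2661 and 1875 RPKM in Untreated A, then Untreated B, then G418 A. The untreated values were close, with a log2 ratio of −0.05 for Untreated B over Untreated A, whereas G418 A was below both. Its log2 change was −0.53 with a standard error of 0.16 (edgeR quasi-likelihood test, Benjamini-Hochberg adjusted p = 0.0341), and the density fell by 30.9% from the untreated mean. The call was lost with a DESeq2 Wald test (adjusted p = 0.0667) and over transcripts averaging 500 or more CDS reads (adjusted p = 0.101).

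Over all transcripts tested, 173 of 5684 (3.04%) were called higher in G418 A and 33 (0.581%) lower. An unadjusted p under 0.05 was found for 849 of the 5684, and 200 of these were lower in G418 A. With TMM scaling 110 were called higher and 41 lower. Among the 28 enzymes, 1 was called lower, none higher by edgeR or DESeq2, and 4 had an unadjusted p under 0.05, all lower. With TMM scaling or DESeq2 size factors, ENO1 and ENO2 were both called lower. A read share that falls can come from less mRNA, fewer ribosomes per mRNA or more reads elsewhere, and these cannot be told apart here. Read shares carry no information on the number of cells or on total RNA per cell.

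ENO2, the neuronal enolase, had the largest change of glycolysis in the same direction. Its density was 63.9 and 66.1 RPKM without G418 and 41.5 with it. The log2 change was −0.65 with a standard error of 0.22 (edgeR adjusted p = 0.0672), just short of the threshold. HK1, the first kinase of the pathway, had the smallest change, with 44.3 and 57.5 RPKM without G418 and 50.01 with it, so G418 A fell between the untreated libraries.

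The other glycolytic enzymes lay between these. GAPDH had 1482 RPKM in G418 A against 1646 and 1867, and PKM 927 against 1019 and 1163. In both, the untreated libraries differed by more than G418 A differed from the nearer of them. Over the 12 glycolytic enzymes with the read minimum, 10 had G418 A below both untreated libraries and none had it above both. The share of all transcripts in those positions was 27.9% below both and 46.3% above both. The median log2 change of glycolysis was −0.24 (range −0.65 to −0.03), and that of all 5684 transcripts was 0.07. Over the 2408 transcripts averaging 500 or more CDS reads, which include 26 of the enzymes, the median edgeR log2 change was 0.01.

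In the pyruvate dehydrogenase complex, DLD, the E3 subunit that reoxidises lipoamide in several mitochondrial complexes, had the lowest value relative to untreated. Its density was 218 and 187 RPKM without G418 and 163 with it, a log2 change of −0.31 with a standard error of 0.17 (edgeR adjusted p = 0.369). PDHA1, the most densely occupied subunit, had 220, 207 and 202 RPKM. DLAT, the E2 core, was the only enzyme of the 28 with G418 A above both untreated libraries, at 57.2, 55.0 and 60.3 RPKM. Its edgeR log2 change of 0.11, with a standard error of 0.19, was under that error. The median of the 4 subunits was −0.15.

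TCA cycle enzymes had a median log2 change of −0.06, the smallest of the pathways against the untreated mean but not against either untreated library alone. OGDH had the lowest value relative to untreated, at 22.2 and 26.2 RPKM without G418 and 17.9 with it, a log2 change of −0.44 with a standard error of 0.22 (edgeR adjusted p = 0.319). MDH2 had 407, 439 and 347 RPKM, and all 3 subunits of the NAD-dependent isocitrate dehydrogenase had G418 A between the untreated libraries. IDH2 had the largest positive value, with 13.8, 20.5 and 20.4 RPKM. G418 A there was close to Untreated B, and Untreated A stood apart. Of the 9 enzymes, 4 had G418 A below both untreated libraries, 5 between them and none above both.

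All 3 pentose phosphate enzymes had G418 A below both untreated libraries. PGD, the 6-phosphogluconate dehydrogenase that yields NADPH, had 218, 210 and 155 RPKM. The untreated pair was close together, and the log2 change was −0.46 with a standard error of 0.17 (edgeR adjusted p = 0.105). TALDO1 (transaldolase), the most densely occupied, had 270, 310 and 255 RPKM, and TKT (transketolase) 182, 228 and 169. The untreated pair of TKT lay further apart than that of PGD, yet its standard error was also 0.17, because the spread was shared across transcripts. The median log2 change was −0.28, and it was −0.11 against Untreated A alone and −0.43 against Untreated B alone.

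Summed over pathways, glycolysis held 1.04%, 1.11% and 0.858% of all reads in Untreated A, then Untreated B, then G418 A. The G418 value was 0.799 times the untreated mean of 1.07% ± 0.0481 (SD, n = 2). The pentose phosphate enzymes held 0.0909%, 0.102% and 0.0780%, or 0.808 times their mean. The pyruvate dehydrogenase complex held 0.0847%, 0.0761% and 0.0719%, or 0.894 times, and the TCA cycle 0.146%, 0.152% and 0.134%, or 0.901 times. Each pathway's share in G418 A was below both untreated values. Against Untreated A alone the values were 0.858 for the pentose phosphate pathway and 0.848 for the pyruvate dehydrogenase complex, so cytosolic and mitochondrial pathways were not separated there. The corresponding value over all transcripts listed was 1.02. Without ENO1 the value for glycolysis was 0.850. Whether the pathways differ in change was not tested.

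**Figure D2:**
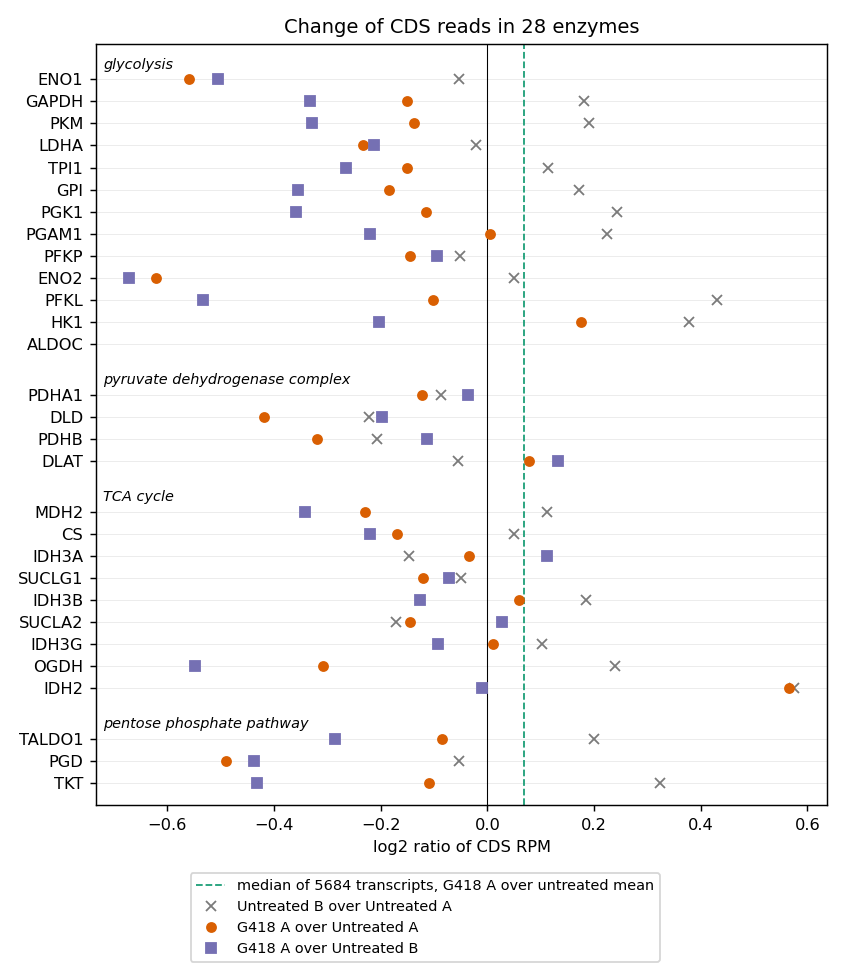
log2 ratio of CDS RPM for the 28 enzymes with the read minimum, with G418 A over Untreated A (circles), G418 A over Untreated B (squares) and Untreated B over Untreated A (crosses), and a dashed line at the median of 5684 transcripts (0.07). Both G418 ratios are left of 0 for 20 enzymes, among which ENO1, ENO2 and PGD have crosses near 0.

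Readthrough scores of most of these enzymes were higher with G418, above both untreated libraries in 24 of 28. How many other transcripts met the same criterion was not computed. Outside the set, scores above 0 were found for 75.8% of transcripts with the drug. Without it the shares were 24.0% (Untreated A) and 22.3% (Untreated B), so such a rise was not particular to the enzymes. Pooled over the 28, the readthrough regions held 23 and 35 reads in the untreated libraries (A, then B) and 653 in G418 A. These gave a pooled RRTS of 0.381%, 0.336% and 10.5% (exact Poisson 95% interval in G418 A 9.71 to 11.3). The pooled RRTS sets the readthrough reads of all enzymes against those that their CDS densities would give over the same stretches. Over all 5684 transcripts the values were 1.57%, 1.25% and 21.3%, so the enzymes had less readthrough than the whole in all 3 libraries. The value with the drug was 29.3 times the untreated mean, against 15.2 times for all transcripts. Intervals here cover counting error only.

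Of the 28 enzymes, 25 (89.3%) had an RRTS above 0 in G418 A, compared with 75.8% of all transcripts. The interval in G418 A lay wholly above those of both untreated libraries for 15 of 28, where the share of all transcripts was 25.8%. Enzymes with more CDS reads have narrower intervals, and the median untreated density was 204 RPKM for the enzymes and 38.3 for all transcripts. An edgeR fit of readthrough reads, with the expected reads as an offset, could be made for 17 enzymes. These had at least 10 readthrough reads over the 3 libraries together. Most such reads were in G418 A, so the filter favoured transcripts that are high with the drug. The calls, and their share of the transcripts fitted, come from that selected set. In it 173 of 1995 transcripts (8.67%) were called higher in G418 A and 517 had an unadjusted p under 0.05. TPI1 was called, and 6 others had an unadjusted p under 0.05. A DESeq2 Wald test called none of the 1995, TPI1 included (adjusted p = 0.234), with 406 at an unadjusted p under 0.05.

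TPI1 ends in UGA followed by G and has a readthrough region of 165 nt. It had 0, 1 and 147 readthrough reads in Untreated A, Untreated B and G418 A, an RRTS of 0%, 0.0774% and 17.9% (95% interval in G418 A 15.2 to 21.1). The ratio of G418 A to the untreated libraries together was 364 with a counting interval of 64.4 to 14493, wide because the untreated side rests on 1 read. The edgeR log2 change was 8.23 with a standard error of 1.92 (adjusted p = 6.02e-04). Other transcripts with the same 4 nt stop signal had a pooled RRTS of 22.9% in G418 A.

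The most abundant glycolytic enzymes had low scores. ENO1, with UAA followed by G, had 3, 7 and 47 readthrough reads and an RRTS of 0.177%, 0.264% and 3.31% (2.43 to 4.40). GAPDH, which shares that stop signal and has no in-frame stop in its 3′UTR, had 0, 4 and 34 reads and an RRTS of 0%, 0.144% and 2.02% (1.40 to 2.83). Their G418 values were 0.366 and 0.224 times the 9.04% pooled over other transcripts with TAAG. PKM, with UGA followed by U, had 1, 0 and 51 reads and reached 10.6% (7.89 to 13.9), or 0.285 times its class. In these 3, G418 A was far above both untreated libraries and below the other transcripts of the same stop signal.

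PFKP, the platelet-type phosphofructokinase, had the highest score of glycolysis. It ends in UGA followed by C and has a region of 60 nt. It had 0, 2 and 20 reads, an RRTS of 0%, 3.70% and 51.8% (31.7 to 80.1), and the interval in G418 A lay above both untreated ones. The liver-type PFKL, which ends in TGAG, has the longest region of the set at 468 nt. It had 0, 0 and 22 reads and 14.6% (9.18 to 22.2), at least 20.3-fold above the limit of 3 reads over the untreated libraries together.

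PGK1 had no readthrough read in any library. Its region is 18 nt long, of which 12 nt were counted, and 3 reads would have been an RRTS of 7.31% in G418 A. The upper 95% limit in G418 A was 8.99%. Other transcripts with TAGT had a pooled RRTS of 13.5%, at which 5.52 reads would be expected, so the score of PGK1 lay below that rate, and one under the limit was not detectable at this depth. ALDOC, under the CDS read minimum, had none either. The remaining glycolytic enzymes (HK1, GPI, PGAM1, ENO2 and LDHA) had 4 to 16 reads in G418 A, none in the untreated libraries, and scores from 3.76% (LDHA) to 29.3% (ENO2).

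All 4 subunits of the pyruvate dehydrogenase complex had readthrough reads in G418 A. DLD, with UGA followed by A, had 0, 1 and 38 reads and an RRTS of 0%, 1.25% and 71.7% (50.7 to 98.4). Its score in G418 A was 2.19 times that of other transcripts with TGAA (32.7%). DLAT, with UAA followed by C, had the lowest score of the complex, from 0, 0 and 2 reads, at 13.9% (1.69 to 50.3). PDHB, the E1 beta subunit, had reads in every library, 1, 7 and 13, and an RRTS of 1.48%, 7.39% and 19.5%. Its interval in G418 A (10.4 to 33.3) lay above that of Untreated A (0.0375 to 8.25) but overlapped that of Untreated B (2.97 to 15.2). PDHA1 had 12 reads in G418 A alone and 14.4% (7.47 to 25.2).

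In the TCA cycle the succinyl-CoA synthetase subunits, which make ATP or GTP from succinyl-CoA, had scores above 100%. SUCLA2, the ATP-forming beta subunit, had 1, 0 and 17 reads in a region of 24 nt and an RRTS of 17.6%, 0% and 269% (157 to 431). SUCLG1, the alpha subunit, had 6, 0 and 58 reads in 42 nt and 16.9%, 0% and 144% (110 to 187). The intervals of the untreated libraries overlapped in both enzymes, and that of G418 A lay above them. In SUCLG1 the nucleotides after the stop codon are almost all A, as the window above shows. RRTS values over 100% were found in 12.1% of the other transcripts with a region under 45 nt. A score above 100% means that the density of reads past the stop codon exceeded that of the CDS.

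IDH3B had no readthrough read in any library. Its region is 21 nt long and 3 reads in G418 A would have been 18.1%, so readthrough was not detectable at this depth. OGDH had 0, 0 and 6 reads and 67.2% (24.7 to 146), from few CDS reads. MDH2 had 0, 0 and 12 reads and 20.0% (10.3 to 34.9). CS was the only enzyme with a score in G418 A below that of an untreated library. It had 6, 0 and 4 reads and an RRTS of 9.45%, 0% and 5.75% in Untreated A, then Untreated B, then G418 A. The untreated mean was 4.72%, so G418 A was above the mean. The reads of Untreated A there exceeded those of G418 A, and the intervals overlapped. IDH3A (0, 4 and 12 reads), IDH3G (0, 0 and 4) and IDH2 (0, 0 and 1) had 32.4%, 13.9% and 5.67% in G418 A.

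The pentose phosphate enzymes were split. TALDO1, with UAG followed by C, had 1, 2 and 77 reads and an RRTS of 0.585%, 0.629% and 38.8% (30.6 to 48.5), with an edgeR log2 change of 5.87, a standard error of 2.16 and an adjusted p of 0.0669. PGD, with UGA followed by U, had 4, 7 and 35 reads and 2.82%, 3.17% and 28.2% (19.6 to 39.2). In both, the untreated libraries were close together and G418 A was above them. TKT, with UAG followed by G, had 0 reads in all 3 libraries over 192 nt, and 3 reads would have been 1.33% in G418 A. Its deposited transcript splices 5 nt after the stop codon. GENCODE 44 also holds other TKT transcripts with the same stop codon whose sequence differs after those 5 nt. Among them, 1 has a region of 135 nt and 1 has no in-frame stop in its 99 nt of 3′UTR. The score of 0 therefore refers to the 3′UTR of the deposited transcript alone. Of the 22 enzymes with another transcript ending at the same stop codon, 1 (TKT) differed in this way.

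**Figure D3:**
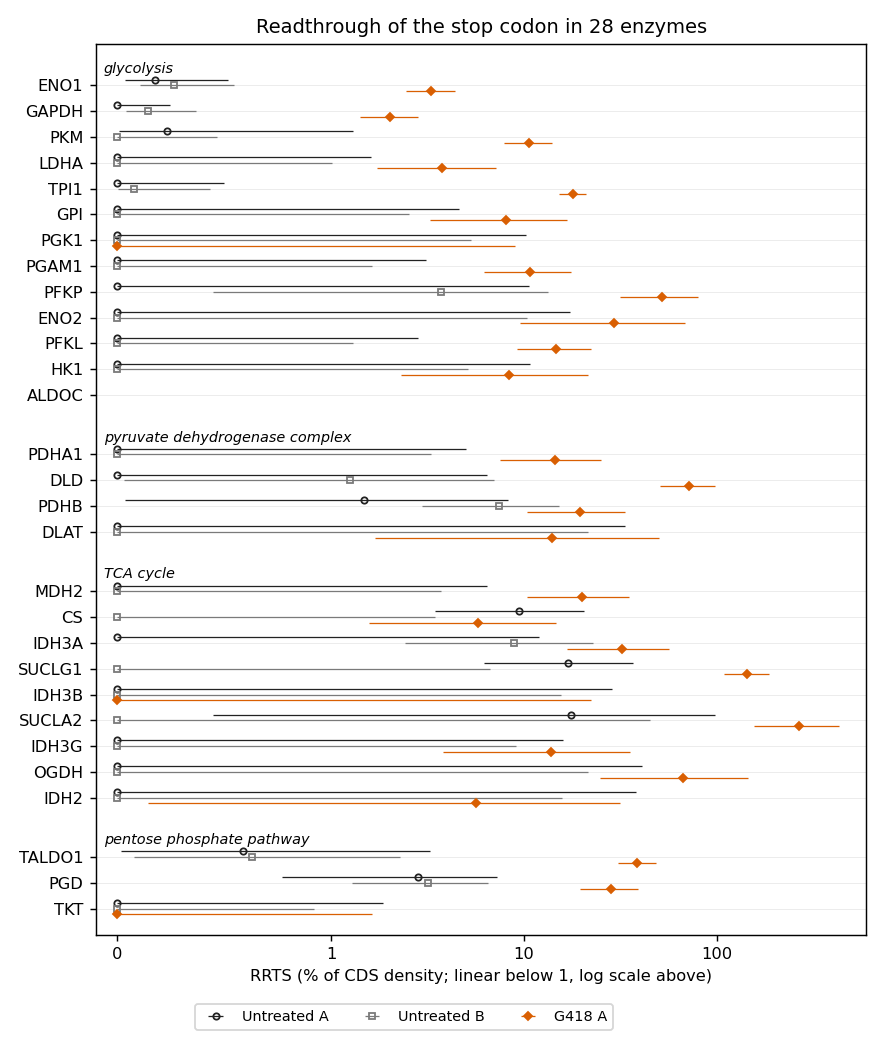
RRTS (percent of CDS density, linear below 1 and log scale above) of the 28 enzymes by library, with exact Poisson 95% intervals as horizontal lines. The G418 A diamonds reach from 0 (PGK1, IDH3B and TKT) through 2.02% (GAPDH) to 269% (SUCLA2), and 15 of 28 have intervals above both untreated libraries.

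Compared by pathway, the glycolytic enzymes of the set had the least pooled readthrough in G418 A and the TCA cycle enzymes the most. The pooled RRTS of glycolysis was 0.0790%, 0.160% and 7.004% (6.30 to 7.76) in Untreated A, Untreated B and G418 A, from 4, 14 and 362 reads. The pentose phosphate pathway had 0.979%, 0.958% and 20.4% (16.8 to 24.5), from 5, 9 and 112 reads. The pyruvate dehydrogenase complex had 0.477%, 2.64% and 29.9% (23.1 to 38.2), from 1, 8 and 65 reads, and the TCA cycle 5.26%, 0.954% and 40.0% (32.99 to 48.0), from 13, 4 and 114 reads. In every pathway G418 A was above both untreated values, and the intervals of glycolysis did not meet those of the others.

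A single enzyme or a pair carried much of this order. ENO1 and GAPDH together had 2.61% in G418 A, and glycolysis without them 13.6%. Without SUCLG1 and SUCLA2 the TCA cycle had 16.3%, and without DLD the pyruvate dehydrogenase complex had 16.5%. The pentose phosphate pathway without TKT had 34.7%. Medians over enzymes, in which each counts once, were 9.49% for glycolysis, 17.0% for the pyruvate dehydrogenase complex, 20.0% for the TCA cycle and 28.2% for the pentose phosphate pathway, with 18.3% over all transcripts. The subsets were chosen after the values were seen.

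The pathways also differ in the stop signals they use. Of the listed enzymes, 9 end in UAA (31.0%), 8 in UAG (27.6%) and 12 in UGA (41.4%), where all transcripts had 27.8%, 22.0% and 50.1%. In glycolysis 5 of 13 end in UAA, 1 in UAG and 7 in UGA. In the TCA cycle 2 of 9 end in UAA, 4 in UAG and 3 in UGA. UGA ends 1 of 4 enzymes of the pyruvate dehydrogenase complex and 1 of 3 of the pentose phosphate pathway. The share ending in UGA was therefore largest in glycolysis, the pathway with the lowest pooled RRTS in G418 A. Pooled by stop codon, the enzymes stood in the same order as other transcripts. Those with UAA had 3.56% in G418 A against 12.4% in others, those with UAG 16.7% against 19.2% and those with UGA 21.7% against 29.96%. The enzyme intervals of UAG (13.6 to 20.3) and UGA (19.7 to 23.9) overlapped. The UAG value includes TKT, with 0 reads, and was not computed without it. Of the 131 UAA reads, ENO1 had 47 and GAPDH 34. Medians were 8.09%, 9.77% and 28.2% for UAA, UAG and UGA, against 9.17%, 16.3% and 27.5% in others.

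Against other transcripts of the same 4 nt stop signal, glycolysis in G418 A had 0.455 times the reads expected (Poisson 95% interval 0.409 to 0.504). The pentose phosphate pathway had 0.830 times (0.683 to 0.999), the pyruvate dehydrogenase complex 1.77 times (1.36 to 2.25) and the TCA cycle 2.005 times (1.65 to 2.41). The value for the TCA cycle without SUCLG1 and SUCLA2 was 0.943 (0.670 to 1.29), that for the pyruvate dehydrogenase complex without DLD 1.39 (0.916 to 2.02), that for glycolysis without ENO1 and GAPDH 0.544 (0.483 to 0.612), and that for the pentose phosphate pathway without TKT 1.16 (0.951 to 1.39), on the other side of 1. So the low value of glycolysis was also there without its most abundant pair, and the high value of the TCA cycle rested on the succinyl-CoA synthetase subunits.

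CDS density and region length differed between the pathways as well. The median region was 82.5 nt in glycolysis, 117 nt in the pentose phosphate pathway, 57 nt in the pyruvate dehydrogenase complex and 42 nt in the TCA cycle. The median untreated CDS density was 582, 214, 173 and 157 RPKM in the same order. Among transcripts outside the set, those of at least 200 RPKM had a pooled RRTS of 17.8% in G418 A and those under 50 RPKM 27.9%. Outside the set, regions under 45 nt had 29.97% and regions of at least 60 nt 19.7%. The TCA cycle and the pyruvate dehydrogenase complex had the shortest regions and the highest pooled RRTS. The pentose phosphate pathway had longer regions than glycolysis and a higher pooled RRTS. The part of density or region length in the order of the pathways was not tested.

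**Figure D4:**
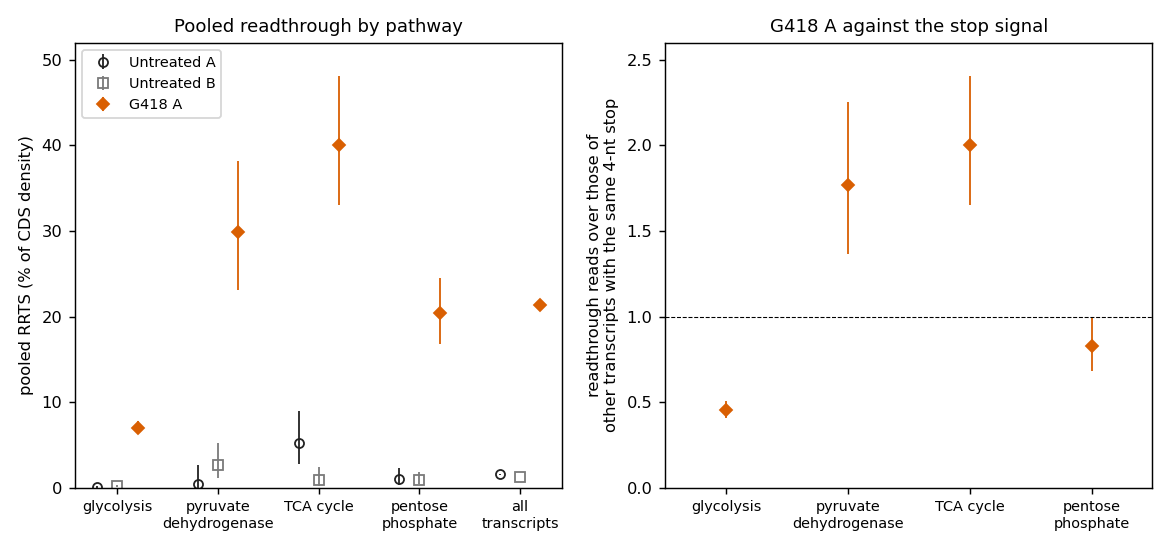
Left, pooled RRTS (percent of CDS density) of each pathway and of all transcripts by library; right, readthrough reads of each pathway in G418 A over the number expected at the pooled rate of other transcripts with the same 4 nt stop signal (dashed line at 1). Bars are exact Poisson 95% intervals. Glycolysis is lowest in both panels (7.004% and 0.455) and the TCA cycle highest (40.0% and 2.005).

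Ribosomes that pass the 3′TC as well would lie in the rest of the 3′UTR. All reads there were counted, whatever their reading frame. The study found no preferred frame in the 3′UTRs of untreated cells, and how these reads arose was not tested. For the 26 enzymes with a stretch beyond the 3′TC, it held 33, 68 and 465 reads in Untreated A, then Untreated B, then G418 A. The density was 0.0669%, 0.0800% and 0.873% of that in the CDS (95% interval in G418 A 0.796 to 0.956), 11.9-fold above the untreated mean. Over all transcripts the density was 0.178%, 0.158% and 0.856%. The enzymes were therefore below all transcripts without the drug and close to them with it. PKM had the most such reads, 2, 11 and 97, and TPI1 had 0, 0 and 49, while TALDO1, with 77 readthrough reads in G418 A, had 1 read past its 3′TC.

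The other genes of the same pathways were counted from a list of 50, of which 28 were listed and 23 had the read minimum. None of the 23 was called in CDS density by edgeR or by DESeq2 in either direction, with 5 and 2 respectively at an unadjusted p under 0.05, and their median log2 change was −0.10. In 12 of them G418 A was below both untreated libraries and in 5 above both. Their pooled RRTS in G418 A was 38.6%, above the 21.3% of all transcripts. By pathway it was 38.5% for glycolysis, 27.2% for the pyruvate dehydrogenase complex, 47.6% for the TCA cycle and 34.2% for the pentose phosphate pathway. Glycolysis was not the lowest here, but single genes weighed heavily. MDH1 had 119 readthrough reads in G418 A, the most of the TCA genes, and LDHB 65, the most of glycolysis. Values without them were not computed. The glycolysis genes here also include the membrane transporters SLC2A1, SLC2A3 and SLC16A1. Readthrough could be fitted for 10, and 1 was called. This was MDH1, the cytosolic malate dehydrogenase, whose UGA followed by C is known to be read through in untreated cells to give a peroxisomal form. It had 36, 44 and 119 readthrough reads and an RRTS of 25.4%, 19.4% and 79.3% (edgeR log2 change 1.82, standard error 0.55, adjusted p = 0.0140), and DESeq2 did not call it.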

How the data were processed

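Ribosome profiling libraries from HEK293T cells (2 Untreated, 1 G418) were analysed from the deposited tables. The authors collapsed reads sharing a molecular identifier, discarded noncoding RNA reads, aligned the rest with STAR to hg38 guided by GENCODE 30, kept the primary alignment of multimapping reads, and assigned fragments of 28 to 35 nt to the A site on 1 transcript per gene, the one with the 3′-most stop codon. The submitters' processing notes name CASAVA 1.8 and STAR.

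The authors deposited RPM values per region, whole-number counts, RPKM densities and density ratios, among them the RRTS. RPKM of the CDS omits the first 18 and last 15 nt. All RPM values were whole multiples of 1 read within a tolerance of 0.01 (100% in each library), so reads were recovered by division. The deposited CDS counts were 1 lower for 9080 of 9099 transcripts in Untreated A, 283 of 9311 in Untreated B and 72 of 9370 in G418 A, so they served as an alternative.

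CDS reads were tested with the edgeR 4.0.16 quasi-likelihood test, with library sizes equal to the reads behind the RPM scale (5857230, 9477972 and 7216039), on the 5684 transcripts found in every library whose CDS reads averaged 128 or more, the minimum the study names. The lone G418 library is assumed to vary like the untreated ones. Readthrough reads were tested likewise, with an offset of the reads expected from the CDS density. This was done where at least 10 reads over the 3 libraries together and a region of 18 nt or more were present. That minimum was met mostly through G418 A. Benjamini-Hochberg adjustment ran over all transcripts fitted, with calls at adjusted p under 0.05. Values for each library carry exact Poisson 95% intervals, and those at 0 a limit of 3 reads. These cover counting error only. Both fits were also run on simulated reads that varied less between libraries than the real ones, much less for readthrough. That run therefore gives no measure of how far the calls here can be trusted. DESeq2 1.42.0, TMM scaling, other filters and left-out libraries were tried as alternatives. R 4.3.3 and Python 3.11.15 were used.

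The members and lists were chosen with earlier results of these data known. In each pathway, full values were given for the enzyme with the highest CDS density, the largest rise and fall, the highest and lowest RRTS in G418, and any past a test. PKM, GAPDH, ENO1, SUCLG1, PFKL, PDHB, CS, PGD and other enzymes with scores in the text beyond this rule were chosen after their values were seen. No batch is named in the labels.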

Additional observations from a re-analysis of the deposited data

How the results depend on the processing

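No paired analysis was possible because the groups share only 1 replicate letter. CDS density: 2 enzymes were called lower with TMM scaling and 2 with DESeq2 size factors (ENO1 and ENO2), 0 with a DESeq2 Wald test and 0 over transcripts averaging 500 CDS reads or more, against 1 in the main test, and over all transcripts the Wald test called 19 higher and 10 lower and the stricter minimum 27 higher and 13 lower. Readthrough: a DESeq2 Wald test called 0 and the stricter minimum 2 (TPI1 and TALDO1), against 1. The median log2 change of the pentose phosphate enzymes ranged from −0.43 to −0.11 when an untreated library was left out. The share of reads relative to the untreated mean was 0.850 for glycolysis without ENO1 and 0.933 for the TCA cycle without MDH2. Pooled RRTS in G418 A was replaced by a median of 9.49% (glycolysis), 17.0% (pyruvate dehydrogenase complex), 20.0% (TCA cycle) and 28.2% (pentose phosphate pathway). Without the enzyme with the most readthrough reads it was 4.94%, 16.5%, 22.9% and 9.98% in the same order, and with regions of at least 60 nt 16.7% for the pyruvate dehydrogenase complex and 19.9% for the TCA cycle. Alternatives chosen after seeing the data gave 13.6% for glycolysis without ENO1 and GAPDH, 16.3% for the TCA cycle without SUCLG1 and SUCLA2 and 34.7% for the pentose phosphate pathway without TKT. Leaving out an untreated library put the fold of pooled RRTS between 43.9 and 88.7 for glycolysis (58.7 with both), 11.4 and 62.7 for the pyruvate dehydrogenase complex (19.2), and 7.61 and 41.9 for the TCA cycle (12.9). Near 0, log2 CDS changes turned sign with a library left out, ranging from −0.20 to 0.18 (HK1), −0.22 to 0.0054 (PGAM1), −0.011 to 0.56 (IDH2), −0.035 to 0.11 (IDH3A), −0.13 to 0.060 (IDH3B), −0.092 to 0.011 (IDH3G) and −0.14 to 0.027 (SUCLA2). IDH3A also turned to −0.032 with TMM scaling and to −0.035 with DESeq2 size factors. The cause was not tested for any of these. The remaining 61 values of pathway results kept their direction and their side of the threshold or, where untested, moved by less than the spread between replicates. Readthrough counts of under 10 per enzyme in untreated libraries limit the folds.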

Other observations

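LDHB, the heart-type lactate dehydrogenase subunit, was in the list of other pathway genes and is described here after its values were seen. Like MDH1 it ends in UGA followed by C and is known to give a peroxisomal form by readthrough. It had 27, 29 and 65 readthrough reads in Untreated A, Untreated B and G418 A in a region of 21 nt, an RRTS of 15.3%, 11.4% and 40.3%. The untreated scores were above those of LDHA, which had no readthrough read in either untreated library. The edgeR log2 change of LDHB was 1.59 with a standard error of 0.64 (adjusted p = 0.109).

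Reads past the 3′TC were unevenly spread over the enzymes. IDH3A had 1, 1 and 38 such reads, MDH2 1, 6 and 31 and SUCLG1 0, 1 and 26 in Untreated A, Untreated B and G418 A. GPI, whose 3′UTR is among the longer ones, had 16, 11 and 42, the most of the set in Untreated A, while ENO1 and PKM also had 11 in Untreated B. GAPDH and IDH3G, whose 3′UTRs hold no in-frame stop, have no such stretch.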
